A study of Homo sapiens with 20 samples.

Results

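Cohesin peaks at the starts of long non-coding RNA (lncRNA) genes made up 6255 of the 188301 peaks in 6 lists, those of the cohesin subunits RAD21, SA1 and SA2 in CHM13 and RPE-1 cells. A peak was a member where it overlapped the 1 kb on either side of the start of a GENCODE 44 lncRNA gene and did not come within 1 kb of the start of a protein-coding gene, on chromosomes 1 to 22 and X of the hg38 build. The members were 2464 of 73739 RAD21 peaks, 1164 of 38153 SA1 peaks and 1393 of 44374 SA2 peaks in CHM13 cells, and 631 of 14939 RAD21 peaks, 344 of 10707 SA1 peaks and 259 of 6389 SA2 peaks in RPE-1 cells.

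The study mapped cohesin by chromatin immunoprecipitation and sequencing (ChIP-seq), with the binding landscape of human centromeres as its question. RPE-1 cells come from retinal pigment epithelium and CHM13 cells from a hydatidiform mole of the complete type, both immortalised with hTERT, and neither was treated. Each subunit was profiled in 3 replicates in CHM13 and 2 in RPE-1 cells, with input chromatin (20 libraries in all), and the replicates of a subunit were pooled into 1 list of peak positions. The RAD21 antibody, the sonicator and the number of replicates differed between the lines. Drosophila chromatin was added as an internal control for CHM13 only, and the study reports more reads for most CHM13 than RPE-1 ChIP libraries. Line and method therefore cannot be told apart, and peak lists hold no expression with which to check either line by its markers. The lists hold no heights and no read counts, so the reads behind a single peak are unknown from them. The intervals given with shares are 95% Wilson intervals that cover counting error only.

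Cohesin is a ring-shaped complex that holds sister chromatids together and extrudes loops of chromatin. RAD21 is the subunit that closes the ring, and SA1 and SA2 are alternative subunits that bind RAD21, so that a single complex holds one or the other. Loop-extruding cohesin tends to be halted where the zinc finger protein CTCF is bound, and it also collects near active promoters. LncRNAs are transcripts with little coding potential, many of which start at promoters or enhancer-like elements of their own.

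The 6 sequences below are shown because they lie under the peaks that sit most squarely on a lncRNA start among the 59 lncRNAs with a gene symbol that had all 3 subunits in both lines. Each is the central 300 bp of the RPE-1 RAD21 peak, read from hg38, and capitals mark a match to the 12-base CTCF core motif at no more than 1 mismatch on either strand.
LINC02687, chr11:45371256-45371555, plus strand: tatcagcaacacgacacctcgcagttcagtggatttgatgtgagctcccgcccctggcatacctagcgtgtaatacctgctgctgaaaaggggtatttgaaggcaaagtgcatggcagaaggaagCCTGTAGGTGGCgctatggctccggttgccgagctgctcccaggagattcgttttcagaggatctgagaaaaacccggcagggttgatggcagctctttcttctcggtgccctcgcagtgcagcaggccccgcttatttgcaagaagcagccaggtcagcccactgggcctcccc
MIR3142HG, chr5:160438455-160438754, plus strand: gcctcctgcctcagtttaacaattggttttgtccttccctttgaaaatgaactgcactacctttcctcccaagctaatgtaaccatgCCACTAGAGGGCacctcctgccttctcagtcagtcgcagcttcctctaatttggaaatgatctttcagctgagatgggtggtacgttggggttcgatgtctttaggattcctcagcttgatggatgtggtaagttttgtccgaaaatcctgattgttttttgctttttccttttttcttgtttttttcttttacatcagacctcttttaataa
CFAP20DC-AS1, chr3:58824316-58824615, plus strand: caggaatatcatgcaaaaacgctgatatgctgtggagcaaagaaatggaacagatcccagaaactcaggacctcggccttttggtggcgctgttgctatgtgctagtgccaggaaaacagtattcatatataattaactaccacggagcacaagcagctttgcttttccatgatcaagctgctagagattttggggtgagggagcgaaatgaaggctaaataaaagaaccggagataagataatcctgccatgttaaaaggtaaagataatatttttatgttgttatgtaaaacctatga
LINC02944, chr10:118241288-118241587, plus strand: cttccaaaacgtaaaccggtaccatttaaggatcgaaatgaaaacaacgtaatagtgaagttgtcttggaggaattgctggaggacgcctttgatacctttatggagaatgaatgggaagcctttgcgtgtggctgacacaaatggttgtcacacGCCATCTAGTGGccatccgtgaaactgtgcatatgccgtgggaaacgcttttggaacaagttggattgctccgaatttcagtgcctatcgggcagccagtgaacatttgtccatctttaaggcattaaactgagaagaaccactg
LINC02733, chr11:62082000-62082299, plus strand: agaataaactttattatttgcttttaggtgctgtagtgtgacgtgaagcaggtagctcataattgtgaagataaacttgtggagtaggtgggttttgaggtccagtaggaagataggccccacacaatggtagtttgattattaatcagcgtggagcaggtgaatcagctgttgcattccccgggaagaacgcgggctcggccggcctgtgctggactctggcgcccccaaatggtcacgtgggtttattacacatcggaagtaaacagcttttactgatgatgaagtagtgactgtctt
LINC01426, chr21:34745564-34745863, plus strand: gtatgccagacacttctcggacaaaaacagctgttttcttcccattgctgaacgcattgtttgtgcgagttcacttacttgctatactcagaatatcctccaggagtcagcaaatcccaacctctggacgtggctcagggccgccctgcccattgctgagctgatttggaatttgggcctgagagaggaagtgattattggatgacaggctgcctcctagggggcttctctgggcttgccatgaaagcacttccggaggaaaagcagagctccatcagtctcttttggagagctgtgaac
A match was found in 3 of these 6 windows, with its middle 10 bp upstream of the start of LINC02687, 46 bp upstream of that of MIR3142HG and 19 bp upstream of that of LINC02944. The matches at MIR3142HG and LINC02944 had no mismatch, and that at LINC02687 had 1. The match at LINC02944 was on the strand opposite to the lncRNA, and the others were on its strand. No match in the remaining 3 says only that the motif was not found in these windows.

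Member peaks were a small share of each list, and a smaller one than peaks at protein-coding starts. They made up 3.34% (3.21 to 3.47) of RAD21, 3.05% (2.88 to 3.23) of SA1 and 3.14% (2.98 to 3.31) of SA2 peaks in CHM13 cells. In RPE-1 cells RAD21 members made up 4.22% (3.91 to 4.56), SA1 members 3.21% (2.90 to 3.56) and SA2 members 4.05% (3.60 to 4.57). Peaks at protein-coding starts took 8.30%, 8.04% and 6.05% of the CHM13 lists and 7.78%, 3.58% and 4.55% of the RPE-1 lists, in the same order. For RPE-1 SA2 the 4.55% lay inside the interval of the members. A peak near both kinds of start counted as one at a protein-coding start, which favours that group. The remaining 88.0% to 93.2% of each list lay away from both kinds of start.

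Seen from the genes, RAD21 peaks lay at the starts of 2493 of 18756 lncRNA genes in CHM13 cells, 13.3% (12.8 to 13.8). SA1 peaks lay at 1208 starts (6.44%) and SA2 peaks at 1419 (7.57%). In RPE-1 cells RAD21 peaks lay at 647 starts (3.45%), SA1 peaks at 355 (1.89%) and SA2 peaks at 267 (1.42%). SA2 was thus at more lncRNA starts than SA1 in CHM13 cells and at fewer in RPE-1 cells. The whole lists had the same order, with 44374 SA2 and 38153 SA1 peaks in CHM13 and 6389 and 10707 in RPE-1 cells. As a share of the list, SA2 members stood at 3.14% and SA1 members at 3.05% in CHM13 cells, and at 4.05% and 3.21% in RPE-1 cells. The RPE-1 SA2 list on hg38 held 6416 peaks, 67.0% of the 9579 it holds on the CHM13 v1.0 build, whereas for the other 5 lists this figure was 93.3% to 103.5%, and the part of this in the RPE-1 SA2 counts was not tested. Of the lncRNA genes, 2665 start within 1 kb of a protein-coding start, where a peak could be a member only if it kept 1 kb from the protein-coding start.

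To set these shares against the genome, the 15427 lncRNA starts more than 2 kb from every protein-coding start were compared with all hg38 positions equally far away. For CHM13 RAD21, 15.5% (15.0 to 16.1) of these starts had a peak within 1 kb, and 6.33% of positions did, a ratio of 2.45. For CHM13 SA1 the values were 7.40% of starts and 3.15% of positions (ratio 2.35), and for CHM13 SA2 8.76% and 3.75% (ratio 2.33). In RPE-1 cells 3.91% (3.61 to 4.23) of starts and 1.15% of positions had a RAD21 peak, a ratio of 3.40. SA1 gave 2.18% against 0.854% (ratio 2.56) and SA2 1.65% against 0.496% (ratio 3.32). In all 6 lists the lower bound of the interval of the starts lay above the share of positions. Some neighbouring lncRNA starts share a peak, since 3.47% to 6.25% of the members of a list covered the surroundings of several starts, so the starts are not fully independent. A CHM13 RAD21 peak at chr10:73730256-73730806 lay at 4 starts, those of BMS1P4-AGAP5, BMS1P4, GLUD1P3 and ENSG00000290737, the highest number at any peak, which a CHM13 SA1 peak at the same place shared.

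The excess was narrow. With the centres of RAD21 peaks counted in bins of 500 bp, CHM13 cells had 47.5 centres per 1000 starts in the bin just upstream of the start and 42.3 in the bin just downstream. The next bins outward held 22.8 upstream and 20.9 downstream, and the bin from 5 kb upstream on held 14.6. In RPE-1 cells RAD21 had 14.0 centres per 1000 starts just upstream and 8.75 just downstream, against 3.89 in the bin from 5 kb upstream on. SA1 and SA2 peaked in the same bin as RAD21 in both lines.

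**Figure D1:**
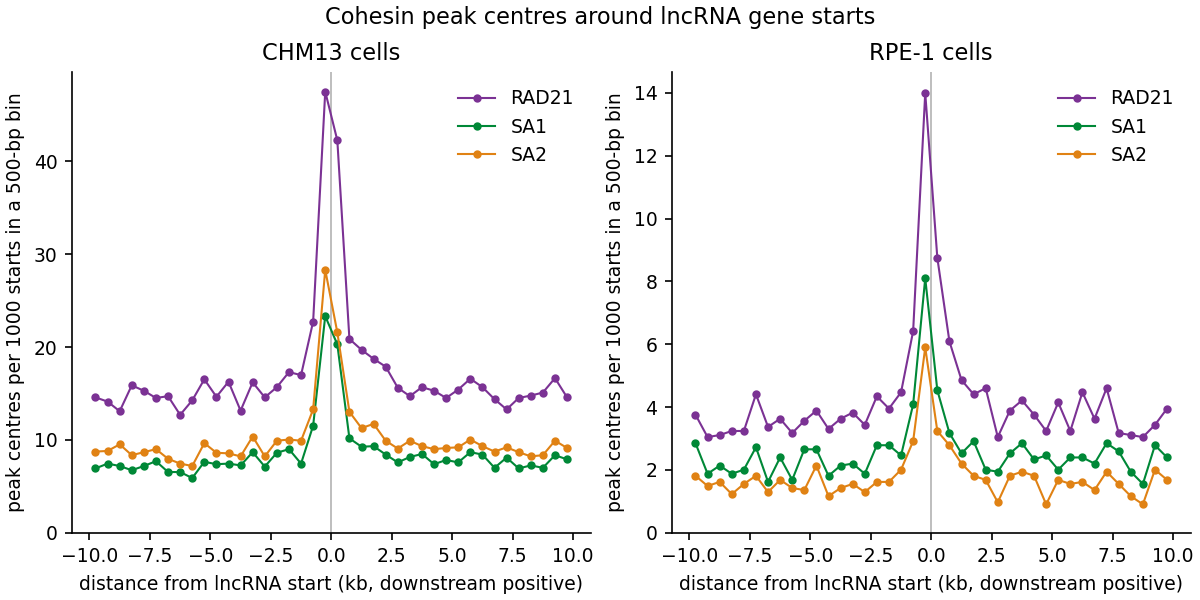
Number of peak centres per 1000 lncRNA starts in 500-bp bins (vertical axis) against the distance from the start in kb (horizontal axis, downstream positive), for the 15427 starts more than 2 kb from protein-coding starts, with 1 line per subunit and 1 panel per cell line. All 6 lines are highest in the bin just upstream of the start, at 47.5 for CHM13 RAD21 and 14.0 for RPE-1 RAD21.

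Peak centres lay more often upstream than downstream of the lncRNA start in RPE-1 cells. Upstream centres made up 57.1% of RAD21 (53.2 to 60.9, adjusted exact p = 0.00135), 61.1% of SA1 (55.8 to 66.1, adjusted exact p = 0.000281) and 59.5% of SA2 members (53.4 to 65.3, adjusted exact p = 0.00434) by a two-sided exact binomial test with Benjamini-Hochberg adjustment over the 6 lists. In CHM13 cells 54.0% of SA2 centres were upstream (adjusted exact p = 0.00434), while the shares of 51.9% for RAD21 and 52.8% for SA1 did not pass the test (adjusted exact p = 0.0638 for both). When only peaks of 400 to 800 bp were kept, a choice made after seeing the data, RPE-1 SA2 no longer passed (57.4%, adjusted exact p = 0.275), and CHM13 RAD21 and SA1 did (54.1% and 55.6%). The CHM13 SA2 call was lost when peaks near any transcript start of a protein-coding gene were left out (53.0%, adjusted exact p = 0.057). The difference between the lines was not tested. Centres lay within 250 bp of the start for 35.2% to 41.7% of the members of a list.

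LncRNAs were then divided by their relation to protein-coding genes. Intergenic lncRNAs overlap no protein-coding gene body, antisense lncRNAs overlap one on the other strand, and sense intronic lncRNAs lie inside one on the same strand. Among starts more than 2 kb from protein-coding starts, 8924 were intergenic, 4874 antisense and 1085 sense intronic, and 544 had another relation.

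Cohesin was found less often at sense intronic than at intergenic starts in 3 of the 6 lists, while no difference between intergenic and antisense starts passed the test. CHM13 RAD21 peaks lay at 1405 intergenic starts (15.7%, 15.0 to 16.5), 788 antisense starts (16.2%, 15.2 to 17.2) and 116 sense intronic starts (10.7%, 8.99 to 12.7). The odds ratio of intergenic against sense intronic starts was 1.56 (1.28 to 1.91, adjusted exact p = 8.55e-05) by two-sided Fisher's exact test, adjusted over 12 comparisons. For CHM13 SA2 the shares were 8.91% and 5.81% (odds ratio 1.59, adjusted exact p = 0.00217) and for RPE-1 RAD21 3.92% and 2.40% (odds ratio 1.66, adjusted exact p = 0.044). The other 3 lists did not pass, with odds ratios of 1.32 for CHM13 SA1 (1.01 to 1.73), 1.52 for RPE-1 SA1 (0.924 to 2.50) and 1.93 for RPE-1 SA2 (1.01 to 3.66). Sense intronic starts nevertheless had a CHM13 RAD21 peak 1.49 times as often as positions inside protein-coding genes, 7.15% of which had one.

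Intergenic against antisense gave odds ratios of 0.931 to 1.21, none of which passed the test (adjusted exact p = 0.252 to 0.732). For CHM13 RAD21 the odds ratio was 0.969 (0.881 to 1.07). It turned to 1.22 (adjusted exact p = 0.00204) when peaks and lncRNA starts near any transcript start of a protein-coding gene were left out, and to 0.900 (adjusted exact p = 0.040) with 2 kb on either side of the start. The RPE-1 RAD21 difference between intergenic and sense intronic starts no longer passed with 500 bp on either side (odds ratio 1.68, adjusted exact p = 0.0569) or with intergenic lncRNAs held to more than 5 kb from protein-coding genes (odds ratio 1.48, adjusted exact p = 0.178), against 1.66 in the comparison reported. Tests of peaks or genes within a pooled list compare those lists and carry no replicate error.

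**Figure D2:**
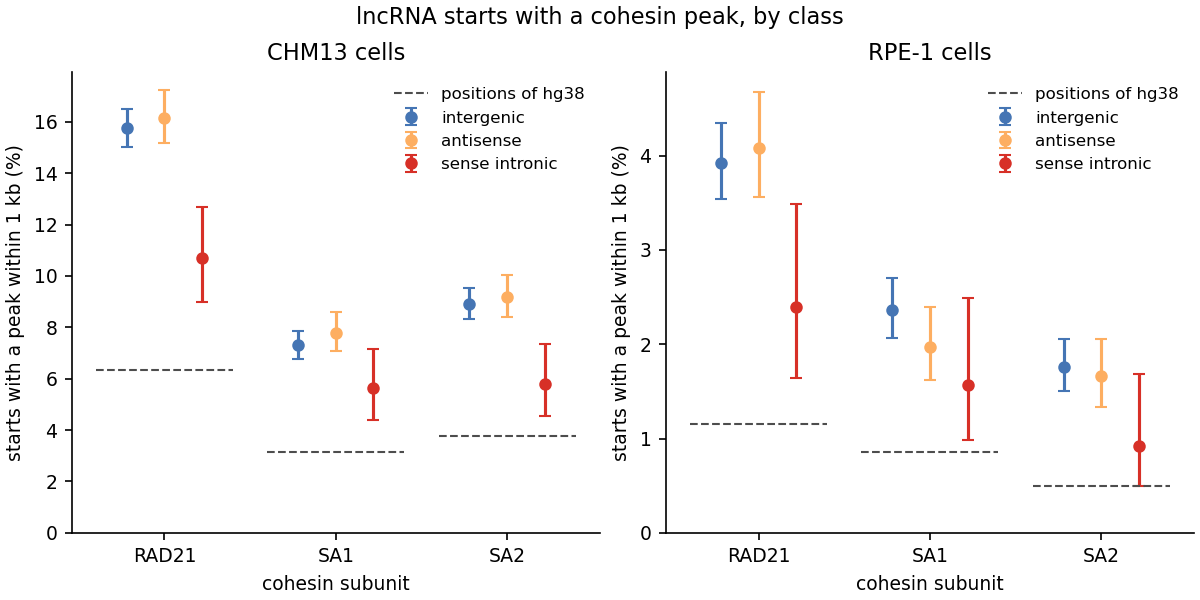
Share of lncRNA starts with a peak within 1 kb, in percent (vertical axis), by subunit (horizontal axis) for intergenic, antisense and sense intronic lncRNAs; points are shares, bars are 95% Wilson intervals, and dashed lines are the share of hg38 positions more than 2 kb from protein-coding starts. For CHM13 RAD21 the shares are 15.7%, 16.2% and 10.7%, against 6.33% of positions.

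The share of starts with a peak was lowest far from protein-coding starts. CHM13 RAD21 peaks lay at 16.1% of lncRNA starts 2 to 10 kb from a protein-coding start, at 17.1% of those 10 to 50 kb away, at 16.8% of those 50 to 200 kb away and at 11.0% of the 3352 starts beyond that (9.96 to 12.1). For RPE-1 RAD21 the shares were 5.68%, 4.83%, 3.70% and 1.70% (1.31 to 2.20). LncRNAs with a gene symbol had a CHM13 RAD21 peak more often (19.4%, 18.3 to 20.6) than those with an identifier only (14.0%, 13.4 to 14.7). These shares are a description, and no test was run on them. The share of hg38 positions at the same distances was not computed, so the shares by distance are not set against the genome.

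All 3 subunits together and RAD21 alone were the most frequent combinations at lncRNA starts. Of the 2593 lncRNA genes with any CHM13 peak, 1006 (38.8%, 36.9 to 40.7) had all 3 subunits, 988 (38.1%) had RAD21 alone, 359 (13.8%) RAD21 with SA2 and 140 (5.40%) RAD21 with SA1. Of the 692 genes with any RPE-1 peak, 207 (29.9%, 26.6 to 33.4) had all 3 and 283 (40.9%) RAD21 alone. The pairs were the other way round in RPE-1 cells, with RAD21 and SA1 at 111 genes (16.0%) and RAD21 and SA2 at 46 (6.65%). RAD21 peaks away from starts had the same order, with SA1 only at 4.56% and SA2 only at 14.3% in CHM13, while the RPE-1 shares were 25.3% and 5.01%. RAD21 without an SA peak was also frequent there, at 37.0% of peaks in CHM13 and 36.1% in RPE-1 cells, against 38.6% and 42.8% of RAD21 members. By member peaks, SA1, SA2 or both without RAD21 occurred at 100 genes in CHM13 and 45 in RPE-1 cells. A RAD21 peak that also came within 1 kb of a protein-coding start was not counted.

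**Figure D3:**
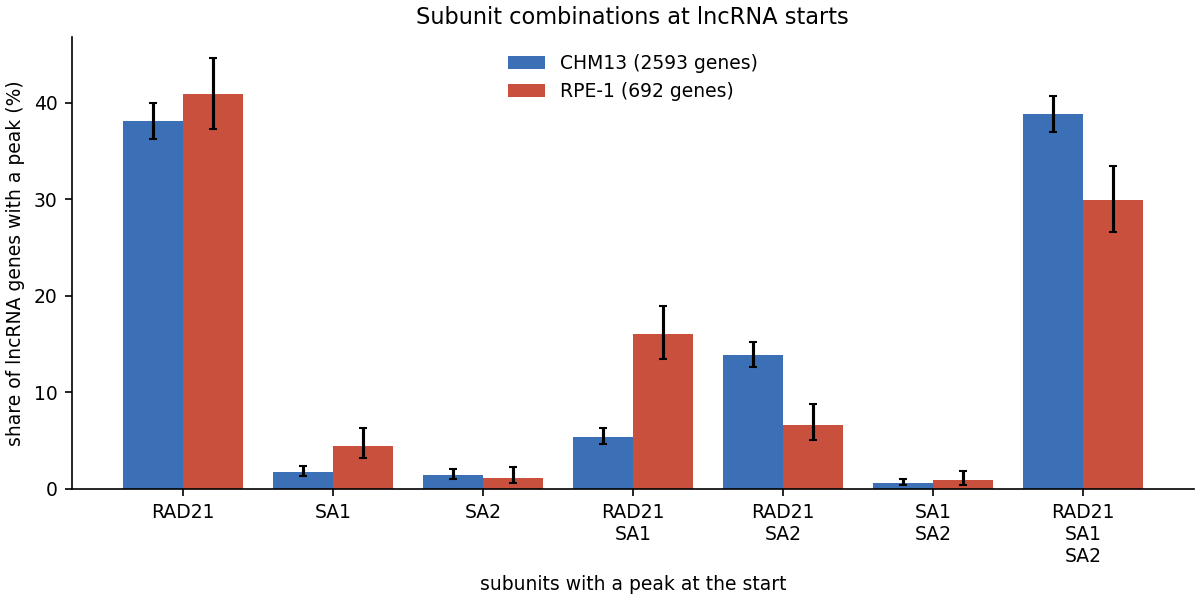
Share of lncRNA genes with any peak at the start, in percent (vertical axis), for each combination of subunits with a peak there (horizontal axis), in CHM13 (2593 genes) and RPE-1 cells (692 genes); bars are shares with 95% Wilson intervals. RAD21 alone and all 3 subunits are the most frequent combinations in both lines, at 38.1% and 38.8% in CHM13 and 40.9% and 29.9% in RPE-1 cells.

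Among CHM13 RAD21 members, 43.0% overlapped both an SA1 and an SA2 peak, against 44.2% of RAD21 peaks away from starts (odds ratio 0.954, 0.879 to 1.03, adjusted exact p = 0.341) and 31.7% at protein-coding starts (odds ratio 1.63, adjusted exact p = 5.14e-22). In RPE-1 cells the shares were 32.6% of members, 33.6% away from starts (odds ratio 0.960, 0.809 to 1.14, adjusted exact p = 0.666) and 19.5% at protein-coding starts (odds ratio 2.00, adjusted exact p = 3.31e-09). By this measure lncRNA starts differed from protein-coding starts in both lines, whereas no difference from peaks away from starts passed the test. With an overlap of at least 50% of both peaks, CHM13 members were also below the peaks away from starts (odds ratio 0.852, adjusted exact p = 0.000322).

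SA1 and SA2 peaks at lncRNA starts overlapped a RAD21 peak more often than those away from starts did. The shares were 98.2% against 95.6% for CHM13 SA1 (adjusted exact p = 6.09e-06), 99.4% against 96.6% for CHM13 SA2 (adjusted exact p = 1.76e-11), 89.5% against 77.7% for RPE-1 SA1 (adjusted exact p = 6.65e-08) and 94.6% against 87.2% for RPE-1 SA2 (adjusted exact p = 0.000275). At protein-coding starts 81.9% of CHM13 SA1 peaks overlapped RAD21, fewer than at lncRNA starts (adjusted exact p = 3.73e-56), and 95.04% of RPE-1 SA1 peaks did, more than at lncRNA starts (adjusted exact p = 0.0107). The difference in SA2 between lncRNA and protein-coding starts did not pass the threshold, with odds ratios of 0.713 in CHM13 (0.286 to 1.78) and 0.623 in RPE-1 cells (0.272 to 1.43). For CHM13 SA2 it turned to 1.93 and passed (adjusted exact p = 1.52e-16) when the overlap had to cover at least 50% of both peaks. Under the overlap of at least 50% of both peaks the CHM13 comparisons with peaks away from starts turned, to odds ratios of 0.929 for SA1 (adjusted exact p = 0.380) and 0.650 for SA2 (adjusted exact p = 9.63e-09), so in CHM13 cells these calls hold for an overlap of 1 bp. The CHM13 SA1 call was also lost among peaks of 400 to 800 bp (odds ratio 1.04, adjusted exact p = 1). The RPE-1 SA1 difference from protein-coding starts, an odds ratio of 0.447, no longer passed among those peaks (0.381, adjusted exact p = 0.266) or under the larger overlap (0.643, adjusted exact p = 0.095). It turned to 1.14 without all protein-coding transcript starts (adjusted exact p = 0.803).

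Members had larger median widths than peaks away from starts in all 3 CHM13 lists. The median width of RAD21 members in CHM13 cells was 788 bp (quartiles 609.75 and 1109.25), against 712 bp away from starts and 894 bp at protein-coding starts. For CHM13 SA1 the medians were 652, 606 and 676 bp, and for CHM13 SA2 645, 604 and 668 bp. RPE-1 peaks were narrower, and the medians of RAD21, SA1 and SA2 members were 469, 401 and 358 bp, against 442, 397 and 360 bp away from starts. Since an overlap rule favours wide peaks, no test was made. With membership by peak centre, the CHM13 RAD21 medians were 780 bp for members and 714 bp away from starts. Peaks over 1000 bp made up 30.8% of CHM13 RAD21 members and 1.11% of RPE-1 RAD21 members. The widest member was a CHM13 RAD21 peak of 7309 bp at the start of MIR222HG on chromosome X, the host transcript of the microRNAs miR-221 and miR-222. The widest CHM13 SA2 member, 3740 bp, lay at the start of ERBIN-DT, and the widest RPE-1 SA2 member, 809 bp, at C1orf220. The widest CHM13 SA1 member, 4344 bp, lay at ENSG00000271857, and the widest RPE-1 RAD21 and SA1 members, 1146 and 1045 bp, both lay at ENSG00000287712.

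At no more than 1 mismatch in the central 300 bp, no difference in the CTCF core motif between members and peaks away from starts passed the test. It was found in 59.9% of RAD21 (56.0 to 63.7), 61.9% of SA1 and 66.4% of SA2 members in RPE-1 cells, against 64.2%, 62.4% and 64.4% away from starts. In CHM13 cells it was found in 24.2% (22.6 to 26.0), 42.2% and 36.4% of members, against 25.9%, 42.2% and 35.6%. The adjusted p of Fisher's exact test was 0.164 to 0.976 over the 6 lists. Of all 300-bp windows of hg38 1.56% hold such a match, and of 34961 RefSeq promoters of the same length 4.94%. Under peaks at protein-coding starts it was found in 14.6% to 24.8% in CHM13 and 44.8% to 52.5% in RPE-1 cells. With up to 2 mismatches, CHM13 RAD21 turned to an odds ratio of 1.11 (adjusted exact p = 0.037), and RPE-1 RAD21 passed at 0.741 (adjusted exact p = 0.037). CHM13 SA2 passed with 2 mismatches (1.18, adjusted exact p = 0.023), in the whole peak (1.16, adjusted exact p = 0.0399) and among peaks of 400 to 800 bp (1.22, adjusted exact p = 0.0171), and CHM13 SA1 turned to 1.16 in the whole peak (adjusted exact p = 0.046). The median GC content of this central stretch was 49.5% to 55.7% in the members of the 6 lists, between 42.3% and 49.0% away from starts and 57.3% and 67.7% at protein-coding starts.

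Matches lay on the strand of the lncRNA in 54.7% of CHM13 RAD21 members with matches on a single strand (50.6 to 58.7) and in 55.1% of RPE-1 RAD21 members (49.9 to 60.1). The 6 lists gave 54.7% to 55.8%, with a lower bound above 50% in the 3 CHM13 lists and below it in the 3 RPE-1 lists. The CHM13 lists held 464 to 567 such members and the RPE-1 lists 163 to 356. Most SA1 and SA2 members overlapped a RAD21 peak, so the lists of a line are not independent. No test was run on these shares or between the lines.

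Within the CHM13 RAD21 members the motif was most frequent where an SA1 peak was also present. It was found in 40.7% (37.7 to 43.6) of the 1060 members that overlapped SA1 and SA2, in 26.2% (18.8 to 35.2) of the 107 with SA1 only, in 10.7% (7.86 to 14.4) of the 346 with SA2 only and in 10.6% (8.82 to 12.7) of the 951 with neither. Away from starts the shares were 42.9% with both, 34.3% with SA1 only, 9.25% with SA2 only and 11.0% with neither. In RPE-1 cells RAD21 members with neither SA peak had the motif in 57.0% (51.1 to 62.8) and those with both in 66.5% (59.8 to 72.6). RPE-1 members with SA1 only had it in 53.2% (43.9 to 62.3) and those with SA2 only in 63.0% (48.6 to 75.5). Away from starts the RPE-1 shares were 65.1% with both, 62.1% with SA1 only, 64.6% with SA2 only and 64.9% with neither. The median width also differed between these classes in CHM13 cells. It was 638 bp with neither, 692 bp with SA1 only, 902 bp with SA2 only and 858 bp with both, and its part in the shares was not tested.

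CHM13 RAD21 and SA2 members were found in RPE-1 cells more often than peaks away from starts were. Of CHM13 RAD21 members 25.9% overlapped an RPE-1 RAD21 peak, against 19.2% away from starts (odds ratio 1.47, 1.34 to 1.61, adjusted exact p = 1.26e-14). For SA2 the shares were 19.3% and 14.1% (odds ratio 1.46, adjusted exact p = 4.98e-07). For SA1 they were 30.8% and 28.3% (odds ratio 1.12, 0.989 to 1.27, adjusted exact p = 0.149), which passed, among the alternatives run, only when peaks near any transcript start of a protein-coding gene were left out (odds ratio 1.29, adjusted exact p = 0.000462). In the other direction 97.1% to 98.1% of RPE-1 members overlapped a CHM13 peak, with no difference from peaks away from starts that passed the test (adjusted exact p = 0.872 to 1).

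Of the 637 CHM13 RAD21 members shared with RPE-1 cells, 578 also overlapped SA1 and SA2 peaks. Most shared peaks away from starts did so too, 11740 of 12494. Of the 1060 CHM13 RAD21 members that overlapped SA1 and SA2, 54.5% (51.5 to 57.5) overlapped an RPE-1 RAD21 peak, against 40.8% (40.2 to 41.3) of such peaks away from starts. Of the 951 with neither SA peak 2.21% (1.45 to 3.35) did, against 1.07% (0.945 to 1.20) away from starts. The intervals of members and of peaks away from starts did not overlap in either case. This division was made after the values of the members had been seen, and no test was run on it.

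**Figure D4:**
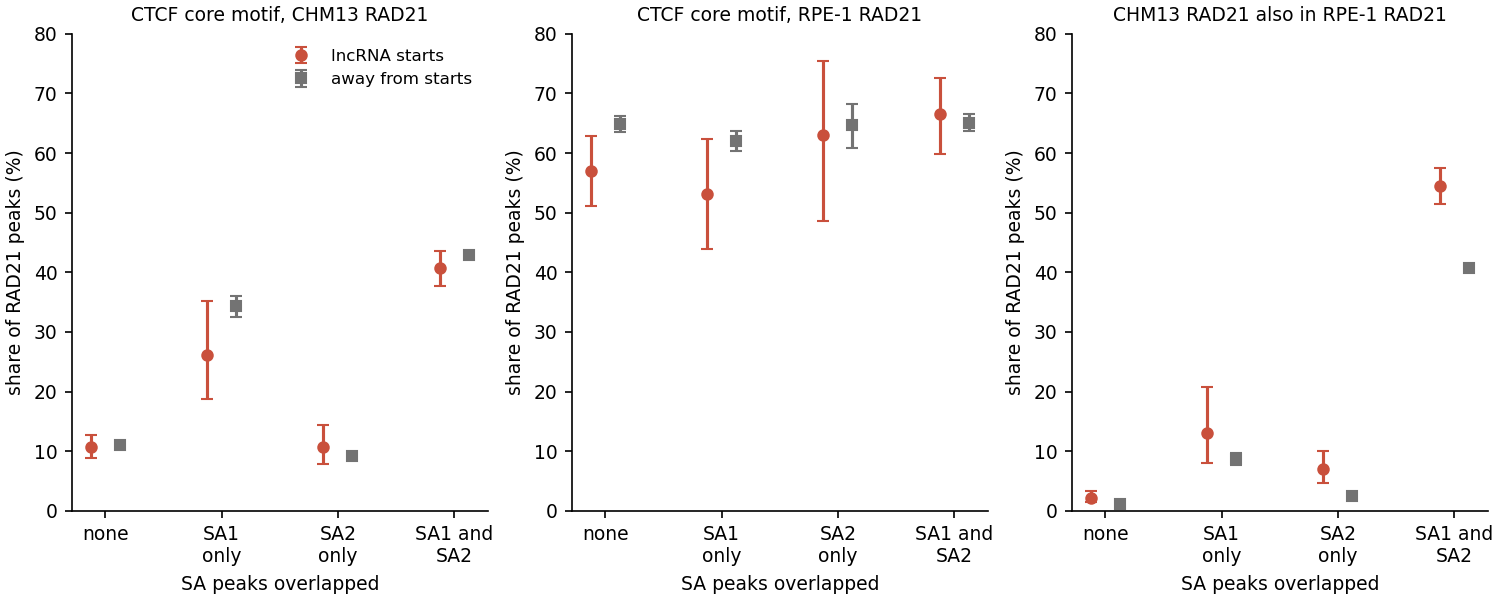
Share of RAD21 peaks in percent (vertical axes) with the CTCF core motif in CHM13 (left) and RPE-1 cells (middle), and of CHM13 RAD21 peaks that overlap an RPE-1 RAD21 peak (right), by the SA peaks they overlap (horizontal axes), at lncRNA starts and away from starts; points are shares and bars 95% Wilson intervals. On the right, members with SA1 and SA2 stand at 54.5% and those with neither at 2.21%.

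By gene, 2627 lncRNA starts had a peak in at least 1 list, and 658 had one in both lines, 95.1% of the 692 with any RPE-1 peak. All 3 subunits in both lines were found at 200 lncRNA starts. These are 96.6% of the 207 with all 3 in RPE-1 and 19.9% of the 1006 with all 3 in CHM13 cells. Away from starts, 97.1% to 98.5% of RPE-1 peaks overlapped a CHM13 peak of the same subunit, so such sharing was not particular to lncRNA starts. The share of hg38 positions with all 6 lists nearby was not computed. Of the 200, 126 were intergenic, 60 antisense and 8 sense intronic, and 59 had a gene symbol. Of all lncRNA genes 54.1% are intergenic, 35.1% antisense and 6.45% sense intronic, and 30.3% have a symbol. These shares include the 2665 genes that start within 1 kb of a protein-coding start, where few peaks can be members. Of the 15427 starts more than 2 kb from every protein-coding start, 8924 were intergenic, 4874 antisense and 1085 sense intronic. The classes of the 200 were not tested against either set. The 6 lists placed the peak at much the same point, since the range of the 6 centres had a median of 74 bp and was at most 100 bp at 124 of the 200 starts. The median RAD21 width at these starts was 883.5 bp in CHM13 and 526 bp in RPE-1 cells. At 4 starts, all of genes without a symbol, member peaks of all 3 subunits were found in RPE-1 and none in CHM13 cells. A CHM13 peak that also came within 1 kb of a protein-coding start would not count here. ENSG00000272482 on chromosome 1, named after its values were seen, had RPE-1 peaks of 926, 535 and 395 bp for RAD21, SA1 and SA2, centred 125 bp downstream, 63 bp upstream and 2 bp downstream of its start. At the other three the RAD21 centres lay 991 to 1114 bp from the start.

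The 20 lncRNAs with a symbol whose RPE-1 RAD21 peak was centred closest to the start among these 200 are mostly long intergenic RNAs with little described function. LINC02687, an intergenic lncRNA on chromosome 11 that starts at 45371397, had peaks centred within 42 bp of its start in all 6 lists. Its CHM13 peaks were 885 bp (RAD21), 741 bp (SA1) and 701 bp (SA2) wide, and its RPE-1 peaks 516, 417 and 350 bp. MIR3142HG, the host transcript of miR-3142 and miR-146a on chromosome 5 (start 160438594), had RPE-1 centres at 11 bp downstream (RAD21), 30 bp upstream (SA1) and 5 bp upstream (SA2). Its CHM13 peaks reached further into the gene, with centres 237, 302 and 340 bp downstream and widths of 1700, 1446 and 1458 bp.

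CFAP20DC-AS1 on chromosome 3 (start 58824437), antisense to the protein-coding gene CFAP20DC, had centres from 29 bp upstream to 52 bp downstream in the 6 lists. LINC02944 on chromosome 10 (start 118241468) had all 6 centres upstream, at 25 to 87 bp. LINC02733 on chromosome 11 (start 62082184) had centres from 28 bp upstream to 59 bp downstream. LINC01426 on chromosome 21 (start 34745756) had all 6 upstream, at 42 to 91 bp.

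ELDR on chromosome 7, which starts 109702 bp from the nearest protein-coding start, had CHM13 peaks of 1745, 1526 and 1406 bp for RAD21, SA1 and SA2 and RPE-1 peaks of 482, 377 and 299 bp. LINC01415 on chromosome 18 had a CHM13 RAD21 peak of 3526 bp, whereas its SA1 and SA2 peaks there were 765 and 800 bp wide. DIRC3 on chromosome 2, a lncRNA found at a translocation breakpoint in renal cancer, had all 6 centres between 95 and 119 bp upstream, and RAD21 peaks of 692 bp in CHM13 and 559 bp in RPE-1 cells. C1orf220 on chromosome 1 had the widest RPE-1 peaks of the 20, at 1139, 926 and 809 bp. The others were LINC01600, LINC02874, LINC02768, LINC02366, LINC02324, LINC02029, TENM2-AS1, LINC00398, LINC01749 and CT75. Over the 20, the CHM13 RAD21 width ranged from 692 to 3526 bp and the RPE-1 RAD21 width from 402 to 1139 bp.

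**Figure D5:**
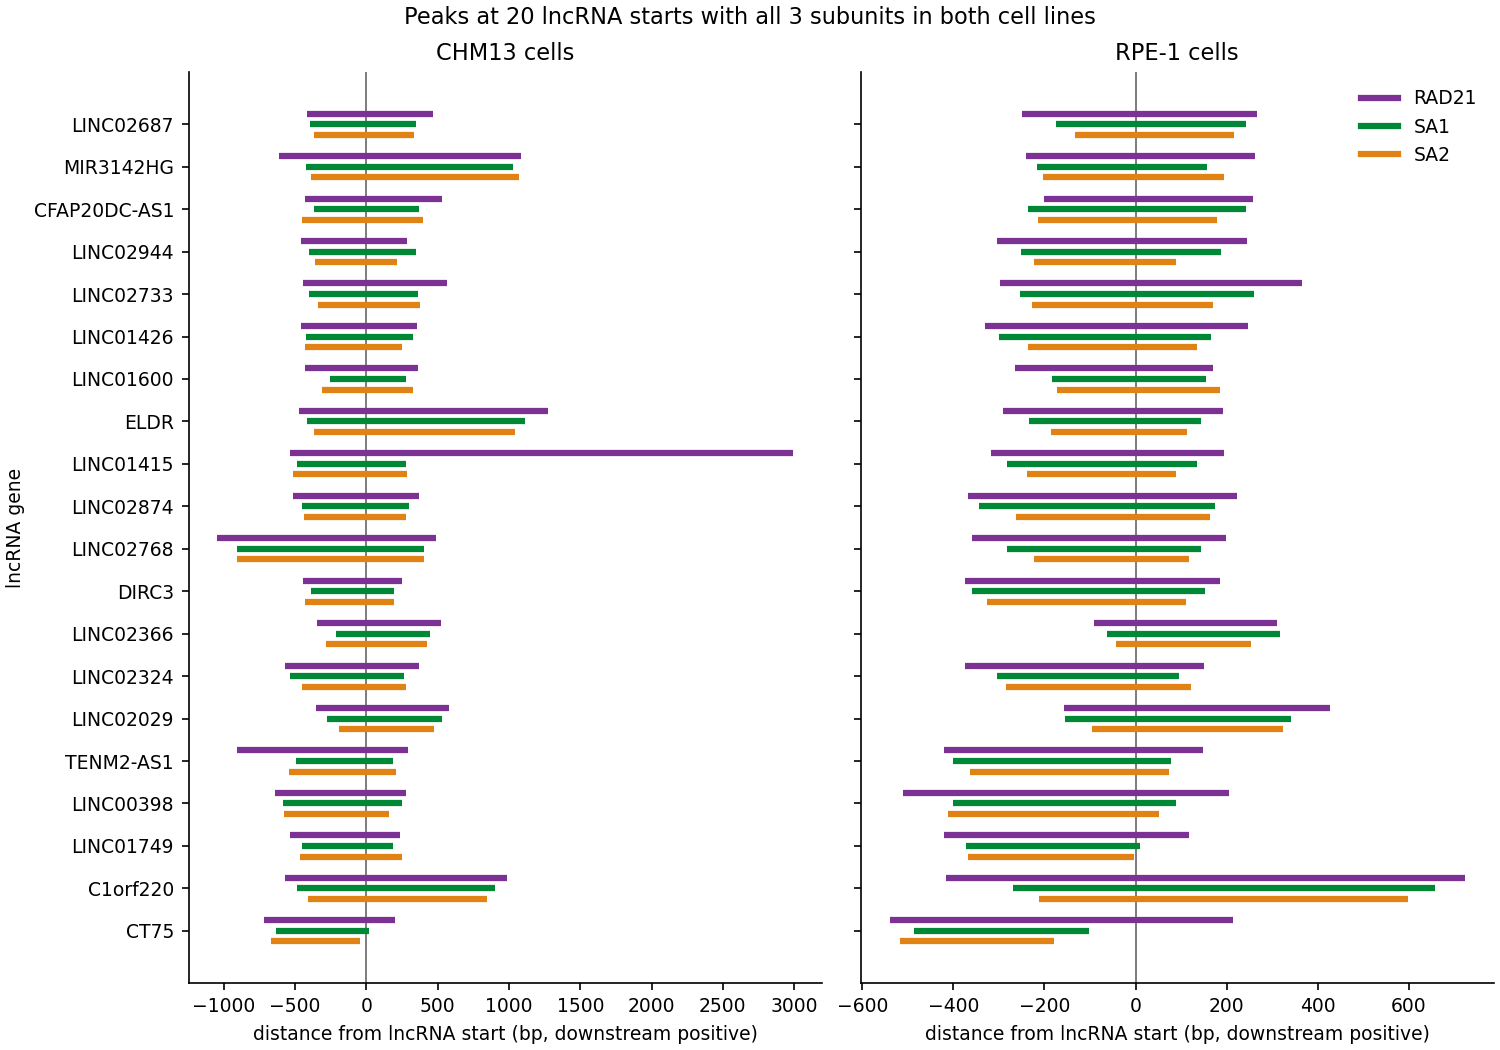
Extent of the RAD21, SA1 and SA2 peaks (bars) at the 20 lncRNA genes named (vertical axis) as the distance from the gene start in bp (horizontal axes, downstream positive, with different scales), in CHM13 (left) and RPE-1 cells (right). The longest bar is the CHM13 RAD21 peak of 3526 bp at LINC01415, and the widest RPE-1 RAD21 peak is the one of 1139 bp at C1orf220.

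Groups of well-known lncRNAs are given next by how many of their members had a peak at the gene start. They are to be read against 13.3% of all lncRNA genes for CHM13 RAD21 and 3.45% for RPE-1 RAD21. For lncRNAs with a symbol that start more than 2 kb from every protein-coding start, the shares were 19.4% and 4.56%. The lncRNAs of these groups all have a symbol. Hosts of microRNAs, transcripts from whose introns or exons microRNAs are processed, had a CHM13 RAD21 peak at 13 of 27 starts and an RPE-1 RAD21 peak at 3 of 27. MIR3142HG had all 6 lists. MIR9-1HG, host of a neural microRNA, had 4 lists, with RAD21 peaks of 639 bp in CHM13 and 533 bp in RPE-1 cells. MIR193BHG also had 4, with a CHM13 RAD21 peak of 3636 bp and an RPE-1 RAD21 peak of 362 bp. DLEU2, host of miR-15a and miR-16-1, had the 3 CHM13 lists and no RPE-1 list, with widths of 2647 bp (RAD21), 515 bp (SA1) and 1424 bp (SA2). LINC-PINT, MIR1-1HG, MIR100HG and MIR124-1HG were among the 14 with none. LINC-PINT starts 80 bp from a protein-coding start, so that most peaks there are no members by the rule.

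Hosts of small nucleolar RNAs, which guide the modification of ribosomal RNA, had a CHM13 RAD21 peak at 9 of 25 starts and an RPE-1 RAD21 peak at 1, that of SNHG20. At SNHG20 the RAD21 centres lay 25 bp upstream in CHM13 and 32 bp upstream in RPE-1 cells. SNHG11 and SNHG16 had all 3 CHM13 lists and no RPE-1 list, and EPB41L4A-AS1 had CHM13 RAD21 and SA1. GAS5, SNHG1, SNHG12 and SNHG15 were among those with none. The starts of 8 of the 25, GAS5 and SNHG1 included, lie within 1 kb of a protein-coding start, so that most peaks there are no members by the rule.

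Among 6 annotated lncRNAs of nuclear bodies or of high nuclear abundance, 3 had a CHM13 RAD21 peak and 1 an RPE-1 RAD21 peak. MIAT had every list but RPE-1 SA1, with centres 934 to 1042 bp upstream of the start. MALAT1, found in nuclear speckles, had CHM13 RAD21 (1473 bp) and SA2 (881 bp) and no RPE-1 list. NEAT1, the scaffold of paraspeckles, had CHM13 RAD21 alone, with a peak of 1636 bp. NORAD, OIP5-AS1 and TERC had none. OIP5-AS1 starts 49 bp from a protein-coding start, and the same holds for it as for LINC-PINT.

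FIRRE, an X-linked lncRNA with CTCF-binding repeats that anchors chromatin loops, had every list but RPE-1 SA1. Its CHM13 peaks were 807 bp (RAD21), 558 bp (SA1) and 689 bp (SA2) wide and its RPE-1 peaks 348 bp (RAD21) and 369 bp (SA2), and all 5 centres lay 107 to 189 bp upstream. JPX, a lncRNA of the X inactivation centre, had CHM13 RAD21 and SA1 peaks, and FTX and XACT had none.

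Of 13 imprinted lncRNAs, 2 had a peak, against 14.0% of all lncRNA genes with a peak in any list. MESTIT1, antisense to MEST, had all 3 CHM13 lists and RPE-1 RAD21, with centres from 54 bp upstream to 33 bp downstream. KCNQ1OT1, which silences neighbouring genes in cis, had CHM13 RAD21 alone, 227 bp upstream. AIRN, DIO3OS, GNAS-AS1 and H19 were among the 11 with none. Of 18 HOX cluster lncRNAs 1 had a peak, HOXB-AS1 with CHM13 RAD21, while HAGLR, HAGLROS, HOTAIR and HOTAIRM1 were among the 17 without one, and 7 of the 18 start within 1 kb of a protein-coding start.

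Of 31 lncRNAs studied in growth control and cancer, 5 had a CHM13 RAD21 peak and 3 an RPE-1 RAD21 peak. LINC01116 had all 6 lists, with widths of 2538, 1369 and 1407 bp for RAD21, SA1 and SA2 in CHM13 and 573, 351 and 394 bp in RPE-1 cells. GATA3-AS1, antisense to the transcription factor gene GATA3, had every list but RPE-1 SA2, with RAD21 peaks of 3243 bp in CHM13 and 464 bp in RPE-1 cells. CYTOR had CHM13 RAD21 and SA2, and DLEU1 CHM13 RAD21. BANCR, CASC15, CDKN2B-AS1 and CRNDE had none.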

How the data were processed

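The authors used BWA for alignment, SAMtools to drop secondary alignments and MACS2 to call the peaks of every replicate, and then merged the peaks of a subunit into a reference list of loci seen in at least 2 replicates. The methods state these steps for the CHM13 v1.0 build, and for hg38 they are not given in the sources used here. The deposited lists hold the start and end of each peak, and no height, fold or p-value. The CHM13 v1.0 lists were used only for their number of peaks.

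Gene starts came from GENCODE 44, and sequence from hg38 and RefSeq. Analyses used Python 3.11.15, numpy 2.4.6, scipy 1.17.1 and matplotlib 3.10.9. A start is the first base of the gene. Peaks on sequences other than chromosomes 1 to 22 and X were left out (17 to 142 a list). Overlaps needed 1 bp. Shares were compared by two-sided Fisher's exact tests with Benjamini-Hochberg adjustment within 4 families (classes, subunits, lines, motif) and a threshold of 0.05, and odds ratios carry 95% intervals. The assignment, test and motif steps were tested on simulated data.

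The lncRNAs named one by one are the first 20 with a symbol and all 6 lists by the distance of the RPE-1 RAD21 centre, up to 4 with the most lists and 4 with none from each group (ties in alphabetical order), and those at the widest peaks and at the peak with the most starts. Members and lists were chosen with earlier results of these data known.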

Additional observations from a re-analysis of the deposited data

How the results depend on the processing

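No paired analysis was possible because each list pools the replicates of its subunit, and for the same reason there is no value without a replicate and no replicate error. Values below run in the order RAD21, SA1, SA2 in CHM13 and then RPE-1 cells.

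The share of peaks at lncRNA starts was 2.70%, 2.49%, 2.50%, 3.23%, 2.43% and 2.80% with 500 bp on either side, and 4.56%, 4.25%, 4.35%, 5.48%, 4.46% and 5.42% with 2 kb. The share of lncRNA genes was 11.1%, 5.26%, 6.05%, 2.61%, 1.41% and 0.965% with 500 bp, 16.8%, 8.64%, 10.1%, 4.49%, 2.66% and 1.94% with 2 kb, and 16.0%, 8.31%, 9.68%, 4.46%, 2.50% and 1.84% with the start of any lncRNA transcript. Leaving out the starts of all transcripts of protein-coding genes gave 2.86%, 2.60%, 2.72% and 3.72% of peaks and 11.5%, 5.53%, 6.61% and 3.03% of genes in the first 4 lists. Membership by peak centre gave 2.84%, 2.71%, 2.77% and 3.84% of peaks in the first 4 lists and 11.6%, 5.72%, 6.70%, 3.11% and 1.70% of genes in the first 5. All other shares under these settings, and all without chromosome X, stayed within the interval of the share reported.

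For intergenic against antisense starts, CHM13 RAD21 reached an odds ratio of 0.900 with 2 kb and turned to 1.22 without the starts of all protein-coding transcripts. Intergenic against sense intronic starts passed for CHM13 SA1 with 2 kb (1.37) and without all protein-coding transcript starts (1.48) and for RPE-1 SA2 with 2 kb (1.93), and it was lost for RPE-1 RAD21 with 500 bp (1.68) and with the margin of 5 kb (1.48). Without all protein-coding transcript starts, the odds ratio of RPE-1 SA1 with RAD21 against protein-coding starts turned to 1.14, CHM13 SA1 sharing with RPE-1 passed at 1.29, the CHM13 RAD21 width was 771 bp, and the upstream share of CHM13 SA2 no longer passed (53.0%).

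With an overlap of 50% of both peaks, CHM13 RAD21 with both SA subunits passed against peaks away from starts (0.852), CHM13 SA1 with RAD21 turned to 0.929 and CHM13 SA2 with RAD21 to 0.650, CHM13 SA2 against protein-coding starts turned to 1.93 and passed, and RPE-1 SA1 against protein-coding starts was lost (0.643). For the motif, 2 mismatches turned CHM13 RAD21 (1.11) and let CHM13 SA2 (1.18) and RPE-1 RAD21 (0.741) pass, and a search of the whole peak turned CHM13 SA1 (1.16) and let CHM13 SA2 pass (1.16). Among peaks of 400 to 800 bp only, a setting chosen after seeing the data, CHM13 SA1 with RAD21 against peaks away from starts (1.04) and RPE-1 SA1 against protein-coding starts (0.381) were lost, CHM13 SA2 passed for the motif (1.22), and the upstream shares passed for CHM13 RAD21 (54.1%) and SA1 (55.6%) and were lost for RPE-1 SA2 (57.4%). The cause of these changes was not tested. The number of lncRNAs with all 3 subunits in both lines, 200, depended on the window, at 135 with 500 bp and 278 with 2 kb. It was 264 with the start of any lncRNA transcript and 188 without all protein-coding transcript starts. Membership by peak centre gave 177.

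The lists carry no depth or peak height. Shares of the lines were not set against sequencing depth here. A start counted without a peak had no member peak in the pooled list. A called peak that also came within 1 kb of a protein-coding start was not counted there. Gene starts follow the annotation, and whether a lncRNA is transcribed in these cells was not analysed here.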

Other observations

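LncRNA starts with a CHM13 RAD21 peak were spread over all chromosomes analysed. The share of lncRNA genes with one ranged from 7.35% on chromosome 19 (55 of 748) to 16.6% on chromosome 11 (150 of 906). For RPE-1 RAD21 the range was 1.37% on chromosome X (5 of 366) to 5.19% on chromosome 11 (47 of 906). The genes counted include those that start near a protein-coding start. No share of positions was computed by chromosome, so these ranges are not set against the density of peaks on each. In RPE-1 cells no peak lay at more than 2 lncRNA starts, and one such pair was LINC00853 and CYP4A22-AS1 on chromosome 1, which shared a RAD21 and an SA2 peak.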
